A study of Mus musculus with 10 samples.

Results

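The chaperones of the endoplasmic reticulum (ER) and the unfolded protein response (UPR) are described here in cultured mouse hepatocytes through 33 genes, chosen by symbol from a count table of 56748 genes. They cover lumenal chaperones, lectin chaperones and disulfide enzymes, stress sensors with their effectors, and the machinery of ER-associated degradation (ERAD). All 33 were found and all 33 passed the filter on low counts, which left 14183 genes. RNA was sequenced from hepatocytes of wild-type mice that had been kept overnight in conditioned medium, and the medium came from adipocytes that had been starved overnight. In Mttp_KO_CM the adipocytes were differentiated from inguinal fat cells of A-Mttp–/– mice, which lack microsomal triglyceride transfer protein in adipose tissue, and in Mttp_flox_CM from those of Mttpf/f mice. There were 5 libraries in each group, of which 1 per group carries a number that no label gives and is called the library without a number.

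The features that both groups shared limit the model. The fat donors were male, had eaten an obesogenic diet for 6 months, and are given in the labels as 3 mice. Their stromal vascular cells were turned into adipocytes with IBMX, insulin, dexamethasone, indomethacin and rosiglitazone. The hepatocytes carried no Mttp deletion themselves, so their own Mttp level (819 to 871 CPM in Mttp_KO_CM and 547 to 589 CPM in Mttp_flox_CM) does not check the labels. CPM are counts per 1e6 counts of the library, with edgeR's TMM scaling, and values after ± are SD over 5 libraries. The sources used here do not give the driver of the Cre or the age, sex and strain of the hepatocyte donors. Whether the 5 libraries are 5 cultures is not stated, and p-values thus measure a spread that could be technical. The labels give 3 fat donor mice beside 5 libraries per group, and the sources used here do not match donors to libraries. The p-values thus cannot be taken to measure spread between donor mice.

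Hepatocytes are secretory cells. Secreted and membrane proteins fold in the ER with the help of chaperones, and misfolded ones are moved back to the cytosol and degraded. When unfolded proteins build up, the sensors IRE1 (gene Ern1), ATF6 and PERK (gene Eif2ak3) start the UPR. IRE1 splices the mRNA of the transcription factor XBP1, ATF6 is cut in the Golgi to release a transcription factor, and PERK phosphorylates eIF2α, which slows translation while favouring that of ATF4. Gene counts measure none of these 3 steps directly, because splicing, cleavage and phosphorylation are not read from a gene's total count.

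ATF6 and XBP1 act on promoters through the ER stress element, written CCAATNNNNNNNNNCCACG, in which N is any base. It was searched on both strands in the RefSeq promoter windows of build GRCm38.p6, which run from 250 bases before to 50 bases after a gene's start. Windows were held for 29 of the 33 genes and not for Hyou1, Manf, Atf6 and Derl1. The element was in 10 of these 29 genes, and in 39 of all 32851 windows (0.119%). Hsp90b1 held a pair of sites, so there were 11 sites in all. They are shown because Hspa5 and Hsp90b1, which had the smallest edgeR adjusted p of the 33 genes, hold them. Calr, Ero1b and Syvn1 hold them too and did not pass the test described below. Pdia4 and Ppp1r15a were called higher and held no match. Each site is read from CCAAT to CCACG, with the fixed bases in capitals and the position and strand of the site after the gene's name.
Calr, chr8:84847075-84847093 (+): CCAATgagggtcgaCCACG
Canx, chr11:50325800-50325818 (-): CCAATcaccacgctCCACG
Creld2, chr15:88819520-88819538 (-): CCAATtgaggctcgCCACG
Derl3, chr10:75893242-75893260 (-): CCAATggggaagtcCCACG
Dnajc3, chr14:118937827-118937845 (+): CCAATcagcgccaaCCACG
Ero1b, chr13:12565682-12565700 (-): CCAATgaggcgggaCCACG
Hsp90b1, chr10:86705638-86705656 (-): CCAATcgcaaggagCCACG
Hsp90b1, chr10:86705533-86705551 (+): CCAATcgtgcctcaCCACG
Hspa5, chr2:34772025-34772043 (+): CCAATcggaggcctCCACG
Pdia6, chr12:17266491-17266509 (+): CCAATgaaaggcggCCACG
Syvn1, chr19:6046532-6046550 (+): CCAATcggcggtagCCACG

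In distance to the annotated start the sites were spread out. The site of Syvn1 lay closest, from 44 to 26 bases before the start, and that of Hspa5 from 65 to 47 bases before it. The farthest was 1 of the sites of Hsp90b1, from 212 to 194 bases before the start. The second form of the element, ATTGGNCCACG, was in 12 of the 32851 windows (0.0365%) and in Dnajb11 and Herpud1 among the 29 genes. The UPR element TGACGTGG was in 222 windows (0.676%) and in 0 of the 29. The C/EBP-ATF element TGATGNAA, bound by ATF4 dimers, was in 1304 windows (3.97%) and in Herpud1. A match is a description of letters and does not show that a factor bound.

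The upstream sequences of 4 genes are printed because their genes moved in opposite directions: Hspa5 and Hsp90b1 were higher in Mttp_KO_CM, and Herpud1 and Xbp1 were lower. Each run holds 220 bases on the gene's strand and ends at the base before the annotated start. Capitals mark the fixed bases of the ER stress element in Hspa5 and Hsp90b1, and in Herpud1 those of the C/EBP-ATF element on the opposite strand followed by the second form of the ER stress element. In Xbp1 none of the 4 motifs was found in the window.
Hspa5 upstream, chr2:34771870-34772089 (+): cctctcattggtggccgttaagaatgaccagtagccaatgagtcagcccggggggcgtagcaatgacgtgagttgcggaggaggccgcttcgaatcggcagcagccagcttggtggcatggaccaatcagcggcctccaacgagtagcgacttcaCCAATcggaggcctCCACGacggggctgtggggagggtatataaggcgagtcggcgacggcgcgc
Hsp90b1 upstream, chr10:86705445-86705664 (-): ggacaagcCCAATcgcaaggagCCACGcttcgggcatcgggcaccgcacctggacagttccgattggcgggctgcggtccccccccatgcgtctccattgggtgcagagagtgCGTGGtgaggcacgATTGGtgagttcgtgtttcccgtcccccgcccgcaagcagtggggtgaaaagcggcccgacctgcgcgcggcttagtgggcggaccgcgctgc
Herpud1 upstream, chr8:94386209-94386428 (+): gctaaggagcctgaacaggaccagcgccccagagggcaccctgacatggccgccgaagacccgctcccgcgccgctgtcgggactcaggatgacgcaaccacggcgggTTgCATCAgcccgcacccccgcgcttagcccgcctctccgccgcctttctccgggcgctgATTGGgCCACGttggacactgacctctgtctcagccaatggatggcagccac
Xbp1 upstream, chr11:5520421-5520640 (+): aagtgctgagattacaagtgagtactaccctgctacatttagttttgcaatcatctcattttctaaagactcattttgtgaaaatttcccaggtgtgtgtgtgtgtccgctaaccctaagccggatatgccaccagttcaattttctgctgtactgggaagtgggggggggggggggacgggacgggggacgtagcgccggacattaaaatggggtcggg

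Of the 33 genes, 13 were higher and 6 were lower in Mttp_KO_CM, so 19 were called (36.4% over all genes tested) and 14 did not pass the test (edgeR quasi-likelihood test, Benjamini-Hochberg adjusted p under 0.05 over all 14183 genes). The higher genes were 39.4% of the 33, where 18.2% of all genes tested were called higher. The lower genes were 18.2% of the 33, where 18.1% of all genes tested were called lower. These genes are well expressed, and depth bears on calls. Among the 6106 genes with a mean of at least 30 CPM, 29.8% were called higher and 20.0% lower; the 30 members above that level had 12 higher (40.0%) and 6 lower (20.0%). The share of higher members was thus above the background at either level and that of lower members lay at it; neither was tested against it.

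Effects were small. The log2 fold changes of the 33 genes, Mttp_KO_CM over Mttp_flox_CM, ran from -0.27 to 0.51 with a median of 0.030, beside a median of 0.001 over all genes tested. No member reached 1.5-fold, although 7.47% of all genes tested were called at that size, and 14 of the 19 called members changed by less than 1.2-fold. In 17 of the 19 the libraries of the groups did not overlap, 11 with Mttp_KO_CM higher (13.0% over all genes) and 6 with it lower (12.7% over all genes). With libraries scaled by their size alone, without TMM, 11 members were higher and 7 lower, the median was -0.010, and over all genes 1982 were higher and 3217 lower instead of 2585 and 2571.

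**Figure D1:**
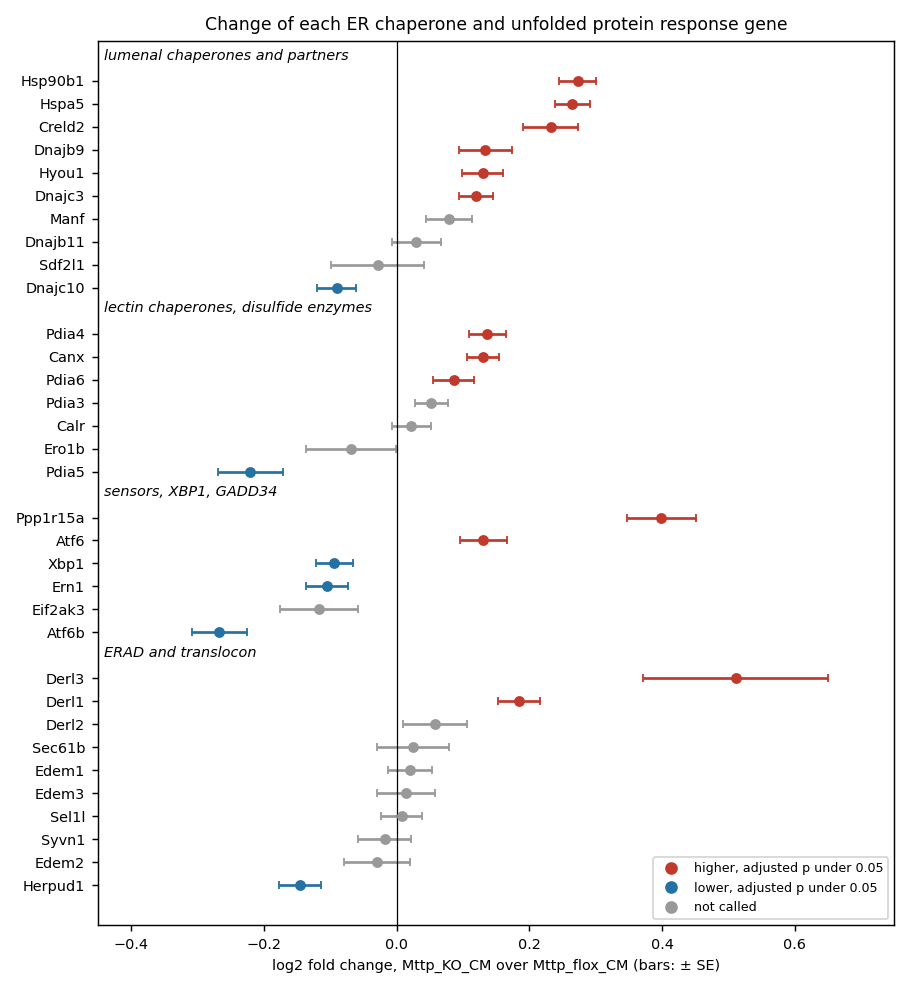
Log2 fold change (Mttp_KO_CM over Mttp_flox_CM, horizontal axis) of each of the 33 genes with its SE, grouped by role and coloured by call. Values run from -0.27 (Atf6b) to 0.51 (Derl3), and 13 genes are called higher and 6 lower.

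Markers of other liver cell types were lower in Mttp_KO_CM. The summed level of 12 endothelial markers was 1370 to 1460 CPM in Mttp_KO_CM and 2410 to 2580 CPM in Mttp_flox_CM, and 12 of 12 were called lower. For 12 macrophage markers the sums were 582 to 658 CPM in Mttp_KO_CM and 861 to 946 CPM in Mttp_flox_CM, with 11 of 12 lower and Cd68 higher, though not with library size alone. Each Mttp_KO_CM library was below each Mttp_flox_CM library for both lists. For 12 stellate cell markers they were 58.9 to 66.5 CPM in Mttp_KO_CM and 105 to 116 CPM in Mttp_flox_CM, with 8 of the 10 tested lower. For 7 cholangiocyte markers they were 315 to 382 CPM in Mttp_KO_CM and 567 to 629 CPM in Mttp_flox_CM, with 3 of the 6 tested lower. Beside these counts, 18.1% of all genes tested were called lower, and 20% of those with at least 30 CPM.

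The 12 hepatocyte markers, all present, summed to 58000 to 60300 CPM in Mttp_KO_CM and 69600 to 73100 CPM in Mttp_flox_CM, with 2 higher and 9 lower; 1 was higher by DESeq2, by limma, with RLE factors, with library size alone and with the stricter filter, and without Mttp_KO_CM replicate 1, 2 or 4 or its library without a number, or Mttp_flox_CM replicate 2, 3 or 4 or its library without a number. The 7 adipocyte markers summed to 126 to 138 CPM in Mttp_KO_CM and 102 to 116 CPM in Mttp_flox_CM; 3 were tested, all 3 were higher, and Lep had no count in any library. The 8 lymphocyte and neutrophil markers summed to 1.89 to 2.85 CPM in Mttp_KO_CM and 2.18 to 3.28 CPM in Mttp_flox_CM, with Nkg7 at 0 throughout. Beside the counts of these lists, 18.2% of all genes tested were called higher and 18.1% lower. ER genes are used by each of these cell types, and the part of the other cell types in the results was not tested. In bulk RNA, fewer cells of a type and less RNA per cell cannot be told apart. Library totals ran from 14283517 to 17178131 counts in Mttp_KO_CM and from 14199798 to 15950530 counts in Mttp_flox_CM.

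Hspa5, at chr2:34661982-34667559 (+) on GRCm39, encodes BiP (GRP78), the Hsp70 chaperone of the ER lumen that also holds the sensors inactive. It had the highest level per length of the 33 genes, at 408 CPM per kb in Mttp_KO_CM and 339 CPM per kb in Mttp_flox_CM, and ranked 84 among the 14183 genes. In replicates 1 to 4 and then the library without a number it had 1796, 1691, 1699, 1670 and 1761 CPM in Mttp_KO_CM, against 1491, 1440, 1455, 1379 and 1407 CPM in Mttp_flox_CM. The groups did not overlap, and the lowest Mttp_KO_CM library stood well above the highest Mttp_flox_CM library. The mean was 1723 ± 52.7 CPM in Mttp_KO_CM and 1434 ± 43.1 CPM in Mttp_flox_CM (SD, n = 5 each), a 1.201-fold difference (log2 0.27, SE 0.026, edgeR adjusted p = 1.33e-08).

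Hsp90b1, at chr10:86526073-86541373 (-), encodes GRP94, the Hsp90 chaperone of the lumen. In the same order it had 818, 741, 786, 745 and 769.5 CPM in Mttp_KO_CM, against 644, 654, 621, 632 and 644 CPM in Mttp_flox_CM. Again every Mttp_KO_CM library was above every Mttp_flox_CM library. It was 1.21-fold higher in Mttp_KO_CM (log2 0.27, SE 0.028, edgeR adjusted p = 1.88e-08), close in size to Hspa5.

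Other lumenal genes, partners of BiP among them, moved in both directions. Creld2, an ER-resident protein induced in ER stress, had 70.3, 68.8, 66.3, 71.2 and 72.1 CPM in Mttp_KO_CM, against 61.0, 63.0, 59.6, 57.7 and 55.4 CPM in Mttp_flox_CM, with no overlap (log2 0.23, SE 0.042, edgeR adjusted p = 9.31e-05). Dnajc3, the BiP co-chaperone P58IPK, which also restrains PERK, had 319, 317, 324, 337 and 327 CPM in Mttp_KO_CM, against 299, 302, 300.5, 297 and 295 CPM in Mttp_flox_CM. Its groups were narrow and apart (log2 0.12, SE 0.026, edgeR adjusted p = 0.000617). Hyou1 (GRP170), a nucleotide exchange factor for BiP, had 222 ± 9.77 CPM in Mttp_KO_CM and 203 ± 2.57 CPM in Mttp_flox_CM (log2 0.13, SE 0.031, edgeR adjusted p = 0.0016).

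Dnajb9 (ERdj4), a BiP co-chaperone that represses IRE1, had 68.5 ± 2.22 CPM in Mttp_KO_CM and 62.3 ± 2.44 CPM in Mttp_flox_CM (log2 0.13, SE 0.04, edgeR adjusted p = 0.0105). Its call depended on the scaling and on the libraries without a number: the edgeR adjusted p was 0.0678 with library size alone and 0.0525 without those libraries. Dnajc10 (ERdj5), a reductase that opens disulfide bonds of proteins bound for degradation, was the 1 lumenal gene that was lower. It had 148, 146, 148, 144 and 143 CPM in Mttp_KO_CM, against 160.1, 151, 155, 154 and 155 CPM in Mttp_flox_CM. The groups did not overlap (log2 -0.090, SE 0.029, edgeR adjusted p = 0.0185), and without the libraries lacking a number the edgeR adjusted p was 0.0589.

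The other 3 lumenal genes did not pass the test. Dnajb11 (ERdj3), a BiP co-chaperone, had 101 ± 4.33 CPM in Mttp_KO_CM and 98.8 ± 2.51 CPM in Mttp_flox_CM (log2 0.030, SE 0.036, edgeR adjusted p = 0.572). Sdf2l1, a stress-induced partner of ERdj3, had 37.6 ± 4.48 CPM in Mttp_KO_CM and 38.2 ± 3.50 CPM in Mttp_flox_CM (log2 -0.028, SE 0.07, edgeR adjusted p = 0.796). Manf, a secreted ER protein induced in stress, had 124 ± 3.36 CPM in Mttp_KO_CM and 117 ± 4.93 CPM in Mttp_flox_CM (log2 0.079, SE 0.035, edgeR adjusted p = 0.0814), and the edgeR adjusted p was 0.0352 without Mttp_flox_CM replicate 1. Manf is uncertain in level because Dcaf1 and Rbm15b overlap its exons and had counts equal to 55.2% and 32.6% of its own.

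Together the 10 lumenal genes took 0.353 ± 0.00745% of a library's counts in Mttp_KO_CM and 0.314 ± 0.00557% in Mttp_flox_CM (SD, n = 5 each). Of them 6 were called higher (60%) and 1 lower (10%), beside 18.2% and 18.1% of all genes tested. Among genes with at least 30 CPM 29.8% were called higher and 20% lower. All 33 genes took 0.808 to 0.829% in Mttp_KO_CM and 0.767 to 0.787% in Mttp_flox_CM, a difference of means of 0.0390 percentage points. Hspa5 alone took 0.170 ± 0.00452% in Mttp_KO_CM and 0.145 ± 0.00414% in Mttp_flox_CM. Shares rest on raw counts, so TMM does not enter them. The difference in the share of the lumenal genes was about as large as that of all 33 genes together. Most of that difference lay in Hspa5.

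**Figure D2:**
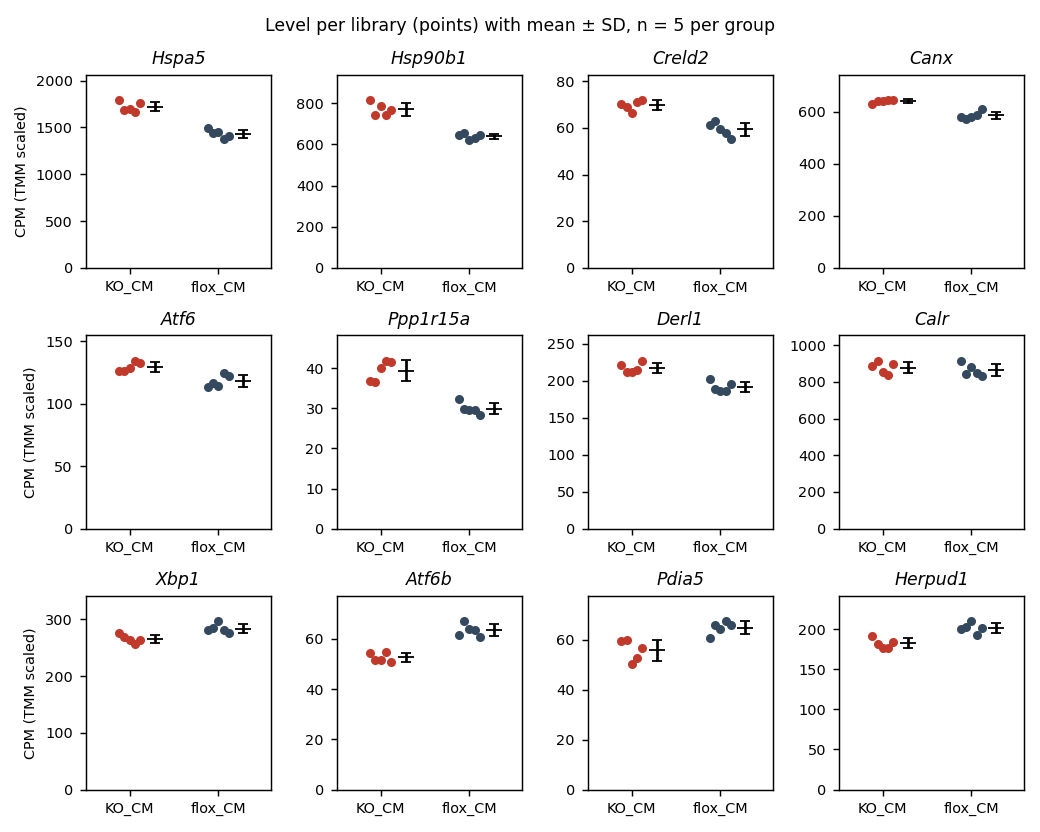
Level of 12 of the 33 genes in each library (vertical axis, CPM scaled by TMM, starting at 0), with mean ± SD of 5 libraries beside the points and Mttp_KO_CM at the left of each panel. Hspa5, Hsp90b1, Creld2, Canx, Atf6, Ppp1r15a and Derl1 are higher in Mttp_KO_CM without overlap, Calr overlaps, and Xbp1, Atf6b, Pdia5 and Herpud1 are lower, Xbp1 by the smallest gap.

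Lectin chaperones hold glycoproteins through their sugar chains while disulfide isomerases shape their bonds. Canx, encoding the membrane chaperone calnexin, had 631, 641, 644, 645 and 647 CPM in Mttp_KO_CM, against 579.6, 574, 581, 587 and 609 CPM in Mttp_flox_CM. The groups did not overlap, and Mttp_KO_CM libraries were nearly equal to each other (log2 0.13, SE 0.024, edgeR adjusted p = 0.000122). Calr, encoding the soluble partner calreticulin, had 886, 911, 852, 838 and 898 CPM in Mttp_KO_CM, against 915, 842, 879, 848 and 834 CPM in Mttp_flox_CM. Its groups overlapped through most of their range (log2 0.022, SE 0.029, edgeR adjusted p = 0.608), although Calr carries an ER stress element and was the second most abundant of the 33 genes per length, at 304 CPM per kb in Mttp_KO_CM and 300 CPM per kb in Mttp_flox_CM.

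The ratio of Hsp90b1 to Calr counts within a library, which no scaling between libraries can alter, was 0.881 ± 0.0465 in Mttp_KO_CM and 0.741 ± 0.0351 in Mttp_flox_CM (SD, n = 5 each). The lowest Mttp_KO_CM library had 0.814 and the highest Mttp_flox_CM library 0.777. It shows that the pair changed unequally, not which of them moved.

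Disulfide enzymes moved both ways. Pdia4 (ERp72) had 257 ± 5.62 CPM in Mttp_KO_CM and 233 ± 5.84 CPM in Mttp_flox_CM (log2 0.14, SE 0.028, edgeR adjusted p = 0.000333), and Pdia4 libraries did not overlap. Pdia5, another member of the protein disulfide isomerase family, had 59.3, 59.8, 50.1, 52.6 and 56.5 CPM in Mttp_KO_CM, against 60.6, 65.9, 64.1, 67.2 and 65.8 CPM in Mttp_flox_CM. All Pdia5 libraries of Mttp_KO_CM were below those of Mttp_flox_CM (log2 -0.22, SE 0.048, edgeR adjusted p = 0.000785). Pdia6 was called higher, at 385 ± 9.13 CPM in Mttp_KO_CM and 362 ± 17.5 CPM in Mttp_flox_CM (log2 0.086, SE 0.031, edgeR adjusted p = 0.0305), but its groups overlapped. The edgeR adjusted p of Pdia6 was 0.0758, 0.0576 and 0.0733 without Mttp_KO_CM replicate 1, replicate 4 or the library without a number, 0.0792, 0.108 and 0.122 without Mttp_flox_CM replicate 3, replicate 4 or the library without a number, and 0.247 with library size alone.

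Pdia3 (ERp57), the isomerase that works with calnexin and calreticulin, had 739.9 ± 20.5 CPM in Mttp_KO_CM and 714 ± 11.5 CPM in Mttp_flox_CM (log2 0.052, SE 0.025, edgeR adjusted p = 0.109), and the edgeR adjusted p was 0.0443 without Mttp_KO_CM replicate 2. Ero1b, an oxidase that recharges the isomerases, had the lowest level per length of the 33 genes when both groups were added. It had 3.25 CPM per kb in Mttp_KO_CM and 3.41 CPM per kb in Mttp_flox_CM, where Derl3 was lower at 3.18 CPM per kb. Ero1b did not pass the test (log2 -0.069, SE 0.068, edgeR adjusted p = 0.47). As a group these 7 genes had 3 higher (42.9%) and 1 lower (14.3%), beside 18.2% and 18.1% of all genes tested. Among tested genes with at least 30 CPM 29.8% were called higher and 20% lower. Together the 7 took 0.293 ± 0.00294% of counts in Mttp_KO_CM and 0.288 ± 0.00311% in Mttp_flox_CM (SD, n = 5 each).

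Among the sensors and effectors, both ATF6 genes changed, in opposite directions. Atf6, at chr1:170532243-170695340 (-), had 126, 126, 129, 135 and 132 CPM in Mttp_KO_CM, against 114, 117, 114, 125 and 122 CPM in Mttp_flox_CM. The groups were close but did not overlap (log2 0.13, SE 0.035, edgeR adjusted p = 0.00454). Its paralog Atf6b, at chr17:34866120-34874048 (+), had 54.3, 51.7, 51.6, 55.0 and 50.9 CPM in Mttp_KO_CM, against 61.5, 66.9, 64.0, 63.7 and 60.7 CPM in Mttp_flox_CM. Its groups were far apart, and its fall was the largest of the 33 genes (log2 -0.27, SE 0.041, edgeR adjusted p = 1.21e-05). The Atf6 to Atf6b count ratio within a library was 2.46 ± 0.10 in Mttp_KO_CM and 1.87 ± 0.116 in Mttp_flox_CM (SD, n = 5 each).

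Xbp1 and Ern1, the transcription factor and sensor genes of the IRE1 branch, were both lower in whole-gene counts, from which splicing is not read. Xbp1, the transcription factor whose mRNA IRE1 splices, had 275.8, 268.8, 264, 257 and 264.2 CPM in Mttp_KO_CM, against 280.6, 284.5, 296.4, 281.8 and 275.9 CPM in Mttp_flox_CM. The groups met almost edge to edge without overlap (log2 -0.094, SE 0.028, edgeR adjusted p = 0.00989). Ern1, encoding IRE1α, had 139.8, 134, 131, 142 and 136 CPM in Mttp_KO_CM, against 147, 148, 152, 143 and 144 CPM in Mttp_flox_CM. These groups did not overlap either (log2 -0.10, SE 0.032, edgeR adjusted p = 0.011). Within a library Hspa5 had 6.29 to 6.66 counts for each Xbp1 count in Mttp_KO_CM and 4.89 to 5.31 in Mttp_flox_CM, with means of 6.48 ± 0.135 in Mttp_KO_CM and 5.05 ± 0.170 in Mttp_flox_CM (SD, n = 5 each). A chaperone gene and the gene of a factor that induces it thus moved apart.

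In the PERK branch, Ppp1r15a was the member called. It encodes GADD34, which directs a phosphatase to eIF2α and so reverses the step that PERK takes. Ppp1r15a had 36.9, 36.5, 40.0, 41.9 and 41.5 CPM in Mttp_KO_CM, against 32.2, 29.9, 29.4, 29.6 and 28.3 CPM in Mttp_flox_CM. The groups were well apart, and the gene was 1.32-fold higher in Mttp_KO_CM (log2 0.40, SE 0.052, edgeR adjusted p = 9.66e-07). Eif2ak3, encoding PERK, had 25.8 ± 1.01 CPM in Mttp_KO_CM and 27.9 ± 2.29 CPM in Mttp_flox_CM and did not pass the test (log2 -0.12, SE 0.059, edgeR adjusted p = 0.128). It was called lower with library size alone (log2 -0.16, edgeR adjusted p = 0.0392) and without Mttp_flox_CM replicate 4 (log2 -0.17, edgeR adjusted p = 0.0205).

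The 6 sensor and effector genes, 2 higher (33.3%) and 3 lower (50%), had the 1 negative median of the role groups, -0.10 on the log2 scale. Their share of counts was 0.0640 ± 0.000861% in Mttp_KO_CM and 0.0678 ± 0.00103% in Mttp_flox_CM (SD, n = 5 each). Over all genes tested 18.2% were higher and 18.1% lower, and among those with at least 30 CPM 29.8% and 20%. The lumenal genes had a median of 0.12, the lectin and disulfide genes 0.052, and the ERAD and translocon genes 0.017. These differences between the role groups were not tested.

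**Figure D3:**
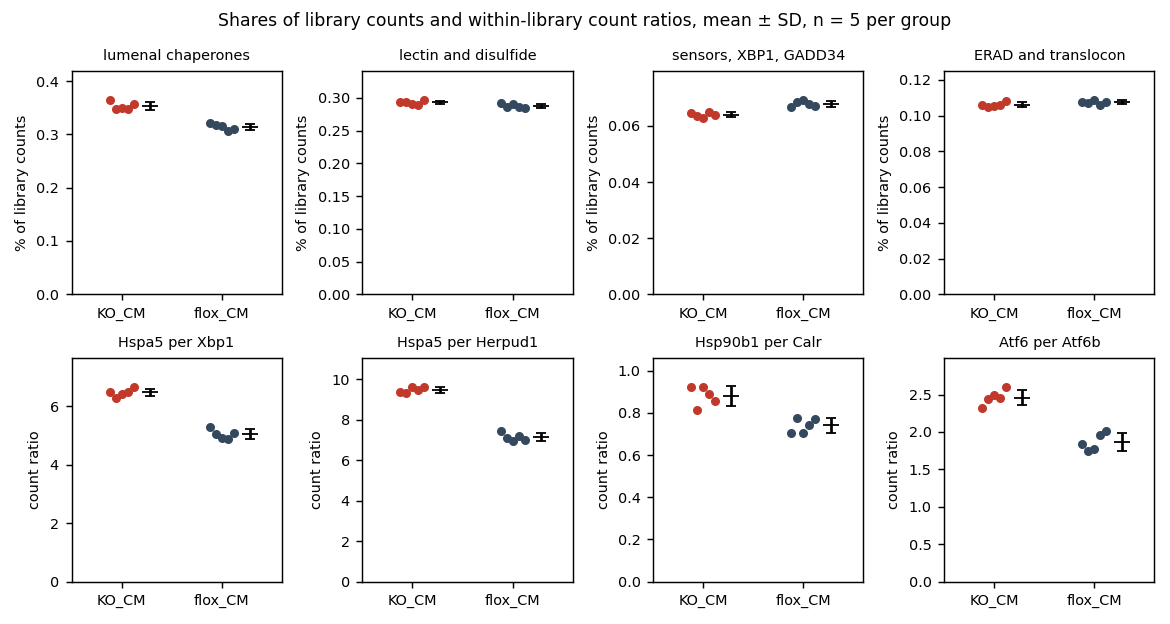
Upper panels show the share of library counts (%) taken by the genes of each role, and lower panels count ratios within a library, as points per library with mean ± SD of 5 libraries and Mttp_KO_CM at the left. Lumenal chaperones took 0.353% in Mttp_KO_CM and 0.314% in Mttp_flox_CM, and Hspa5 per Xbp1 was 6.48 in Mttp_KO_CM and 5.05 in Mttp_flox_CM.

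Of the 10 ERAD and translocon genes 2 were higher (20.0%, beside 18.2% of all genes tested) and 1 was lower (10.0%, beside 18.1%). Derl1, encoding derlin-1, a membrane protein of the channel that returns misfolded proteins to the cytosol, had 222, 212, 211, 215 and 227 CPM in Mttp_KO_CM, against 202, 189, 186, 186 and 195 CPM in Mttp_flox_CM. Its groups did not overlap (log2 0.18, SE 0.032, edgeR adjusted p = 4.8e-05). Derl3 had 10.38, 10.03, 7.336, 7.835 and 9.775 CPM in Mttp_KO_CM, against 6.001, 6.292, 7.999, 4.282 and 7.157 CPM in Mttp_flox_CM. The change of Derl3 was the largest fold of the 33 genes, 1.42 (log2 0.51, SE 0.14, edgeR adjusted p = 0.00501), yet its groups overlapped, its level was low, and its libraries varied most, by a coefficient of variation of 15.3% in Mttp_KO_CM and 22% in Mttp_flox_CM, against medians over the 33 genes of 3.43% in Mttp_KO_CM and 3.84% in Mttp_flox_CM.

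Herpud1, a membrane scaffold of the degradation complex that ER stress induces, went the other way. It had 191.9, 182, 176.9, 176.6 and 183.4 CPM in Mttp_KO_CM, against 200.7, 202.4, 209.5, 192.4 and 201.8 CPM in Mttp_flox_CM, and the groups were close but did not overlap (log2 -0.14, SE 0.031, edgeR adjusted p = 0.00066). The Hspa5 to Herpud1 count ratio within a library was 9.46 ± 0.139 in Mttp_KO_CM and 7.13 ± 0.192 in Mttp_flox_CM (SD, n = 5 each). Both genes are textbook targets of the UPR, and they differed in direction here.

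The remaining 7 ERAD and translocon genes did not pass the test. Edem1, Edem2 and Edem3, which trim mannose from misfolded glycoproteins, had log2 changes of 0.020, -0.029 and 0.014. Sel1l and Syvn1, the adaptor and ubiquitin ligase of the core degradation complex, had 0.008 and -0.018. Derl2, a second derlin, had 0.058, and Sec61b, a subunit of the translocation channel, 0.025. Their edgeR adjusted p ran from 0.382 for Derl2 to 0.863 for Sel1l. Syvn1 and Derl2 are uncertain in level, since Mrpl49 and Mis12 overlap their exons on the opposite strand with counts equal to 31.8% and 35.5% of theirs. The 10 genes of this role took 0.106 ± 0.00128% of counts in Mttp_KO_CM and 0.107 ± 0.00104% in Mttp_flox_CM (SD, n = 5 each).

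The calls were also counted by the promoter element shown above. Of the 10 genes that hold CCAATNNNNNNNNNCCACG, 7 were higher and 0 lower in Mttp_KO_CM: Hspa5, Hsp90b1, Dnajc3, Creld2, Canx, Pdia6 and Derl3 were higher, and Calr, Ero1b and Syvn1 were not called. The count of 0 lower held at an unadjusted p under 0.05, by DESeq2 and by limma, while limma and library size alone each called 6 higher. Pdia6 lost its call in 10 of 18 alternatives, and the groups of Pdia6 and of Derl3 overlapped. Hyou1, Atf6 and Derl1, also called higher, had no window to search. Over all genes tested, 18.2% were higher and 18.1% lower, and among those with at least 30 CPM 29.8% were higher and 20.0% lower. The median log2 change of the 10 genes was 0.12. Of the 19 genes whose window held no exact match to this form, 3 were higher (Dnajb9, Pdia4 and Ppp1r15a) and all 6 lower genes were among them, with a median of 0.008. Dnajb11 and Herpud1, which hold the second form of the element, ATTGGNCCACG, were counted among these 19. Of these 2, Herpud1 was lower and Dnajb11 was not called. Near matches and bases outside the window were not searched. The element was first described in promoters of genes such as Hspa5, the genes were chosen for this pathway, and the difference between these sets was not tested. Outside the ER set, 9 genes with the element were tested. Of those, 3 were higher and 1 lower, with a median log2 change of 0.013.

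**Figure D4:**
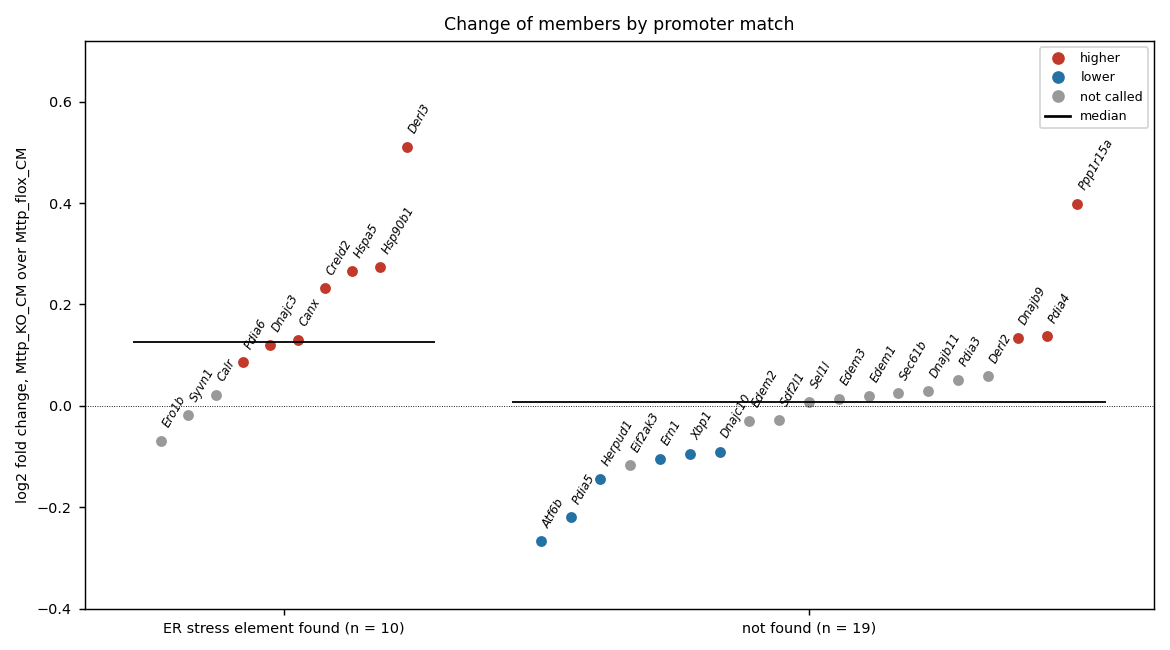
Log2 fold change (Mttp_KO_CM over Mttp_flox_CM, vertical axis) of the 29 genes with a RefSeq promoter, by whether the ER stress element was found, coloured by call, with horizontal lines at the medians of 0.12 and 0.008. Of the 10 genes with the element 7 are called higher and 0 lower, and of the 19 without it 3 are higher and 6 lower.

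Neighbouring steps of the secretory pathway were read from lists of other genes. Of 32 other ER folding genes tested, 8 were higher and 2 lower, with a median log2 change of 0.026. The higher share was 25%, beside 18.2% of all genes tested and 29.8% of those with at least 30 CPM. With library size alone 6 were higher and 4 lower, and without Mttp_KO_CM replicate 2, Mttp_flox_CM replicate 3 or the Mttp_flox_CM library without a number 1 was lower. Qsox1, a disulfide oxidase, had 501 ± 9.99 CPM in Mttp_KO_CM and 404 ± 8.54 CPM in Mttp_flox_CM (SD, n = 5 each; log2 0.31, SE 0.025, edgeR adjusted p = 3.3e-10). Ero1a, the main ER oxidase and paralog of Ero1b, was also higher (log2 0.28, edgeR adjusted p = 1.0e-05), as was Fkbp11, a prolyl isomerase (log2 0.40, edgeR adjusted p = 2.1e-07). Fkbp14 (log2 -0.59) and Cnpy2 (log2 -0.12) were the lower genes of this list.

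Among 23 other ERAD genes 4 were higher (17.4%) and Os9, a lectin, was lower (log2 -0.10, edgeR adjusted p = 0.0086). Over all genes tested 18.2% were higher and 18.1% lower, and among those with at least 30 CPM 29.8% and 20%. The higher ones included Vcp, the ATPase that pulls proteins out of the membrane (log2 0.19), Nploc4, a cofactor of Vcp (log2 0.13), and Ubxn4 (log2 0.086). Of 25 genes of translocation and signal peptide removal, 8 were higher (32%) and 0 lower, led by Srprb (log2 0.22), Serp1 (log2 0.14) and Ssr3 (log2 0.13). There, 0 were lower by DESeq2 and by limma, and 1 at an unadjusted p under 0.05 and without Mttp_KO_CM replicate 4 or Mttp_flox_CM replicate 4. With library size alone 4 were higher and 1 lower. Of 12 oligosaccharyltransferase genes, 4 (33.3%) were higher (Rpn1, Dad1, Krtcap2 and Stt3b, log2 0.078 to 0.13) and Ostc was lower (log2 -0.16). However, 0 were higher with library size alone, and 2 were without Mttp_KO_CM replicate 2 or 3 or Mttp_flox_CM replicate 2 or 4.

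Export from the ER held a larger change. Sar1b, the GTPase that starts COPII coats and is needed for the export of lipoproteins, had 219 ± 4.82 CPM in Mttp_KO_CM and 149 ± 6.10 CPM in Mttp_flox_CM (SD, n = 5 each; log2 0.55, SE 0.032, edgeR adjusted p = 4.6e-13). Sec24a (log2 0.32) and Preb (log2 0.17) were higher too, and Sec16b (log2 -0.25) and Sec16a (log2 -0.11) lower. On this list of 20 genes, 6 were higher (30%) and 2 lower (10%). Beside these stand 18.2% and 18.1% of all genes tested, and 29.8% and 20% of those with at least 30 CPM.

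Of 11 membrane-bound transcription factors of the ATF6 kind, their proteases and partners, 2 were higher and 2 lower (18.2% each, beside 18.2% and 18.1% of all genes tested), and with library size alone 4 were lower. Creb3l3 (CREBH), a liver factor of lipid metabolism cut by the same proteases as ATF6, had 717 ± 38.4 CPM in Mttp_KO_CM and 192 ± 11.4 CPM in Mttp_flox_CM (SD, n = 5 each; log2 1.90, SE 0.039, edgeR adjusted p = 3.7e-22). Mbtps2, the second of those proteases, was higher (log2 0.16), and Creb3l2 (log2 -0.34) and Creb3l1 (log2 -0.48) were lower. Of 6 IRE1 partners tested, Rtcb, the ligase that joins the spliced Xbp1 mRNA, was higher (log2 0.14) and Dab2ip (log2 -0.19) and Map3k5 (log2 -0.11) were lower. Of these partners 16.7% were higher and 33.3% lower, beside 18.2% and 18.1% of all genes tested. Without Mttp_KO_CM replicate 3 or 4 or Mttp_flox_CM replicate 3, 1 was lower.

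The PERK and ATF4 list had 9 of 16 genes higher (56.2%) and 0 lower, with a median of 0.12. The lower count was 0 by edgeR at adjusted and unadjusted p, by DESeq2 and by limma alike. Over all genes tested 18.2% were higher, and 29.8% of those with at least 30 CPM. Atf3, a stress-induced transcription factor, had 33.5 ± 2.80 CPM in Mttp_KO_CM and 23.8 ± 1.31 CPM in Mttp_flox_CM (SD, n = 5 each; log2 0.49, SE 0.060, edgeR adjusted p = 3.6e-07). Asns, asparagine synthetase and a target of ATF4, was higher (log2 0.29, edgeR adjusted p = 1.8e-06), and so was Cebpb (log2 0.26, edgeR adjusted p = 1.0e-05). Atf4 itself (log2 0.10, edgeR adjusted p = 0.0075) and Ddit3, encoding CHOP (log2 0.30, edgeR adjusted p = 0.0019), were higher; both were named after their values were seen.

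Nearly all genes on the lists of chaperones outside the ER were higher. Of 18 cytosolic heat shock genes 18 were higher, with a median log2 change of 0.27, and DESeq2 and limma each called 17 and library size alone 15. Over all genes tested 18.2% were higher, and 29.8% of those with at least 30 CPM. The lists were chosen with earlier results of these data known, so these counts are given as a description only. Hspa8, the constitutive cytosolic Hsp70 and counterpart of Hspa5, had 3209 ± 120 CPM in Mttp_KO_CM and 2348 ± 121 CPM in Mttp_flox_CM (SD, n = 5 each; log2 0.45, SE 0.032, edgeR adjusted p = 2.1e-11). Hsph1 (log2 0.47) and Hspa4 (log2 0.35) followed. The inducible pair Hspa1b (log2 1.37) and Hspa1a (log2 2.42) changed most but are near-identical copies whose reads the counting could split, and both were named after their values were seen.

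Of 9 mitochondrial chaperones and proteases 8 were higher (88.9%, beside 18.2% of all genes tested), with a median of 0.26. Hspd1, the chaperonin Hsp60, had 726 ± 15.2 CPM in Mttp_KO_CM and 506 ± 8.01 CPM in Mttp_flox_CM (SD, n = 5 each; log2 0.52, SE 0.024, edgeR adjusted p = 6.9e-15). Clpx (log2 0.48) and Hspa9 (log2 0.28) were higher as well, and Trap1 was not called (log2 0.060, edgeR adjusted p = 0.209). No gene of these cytosolic and mitochondrial lists was lower by edgeR at an adjusted or unadjusted p, by DESeq2 or by limma. The median of the ER set, 0.030, lay below both of these medians, and that difference was not tested.

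**Figure D5:**
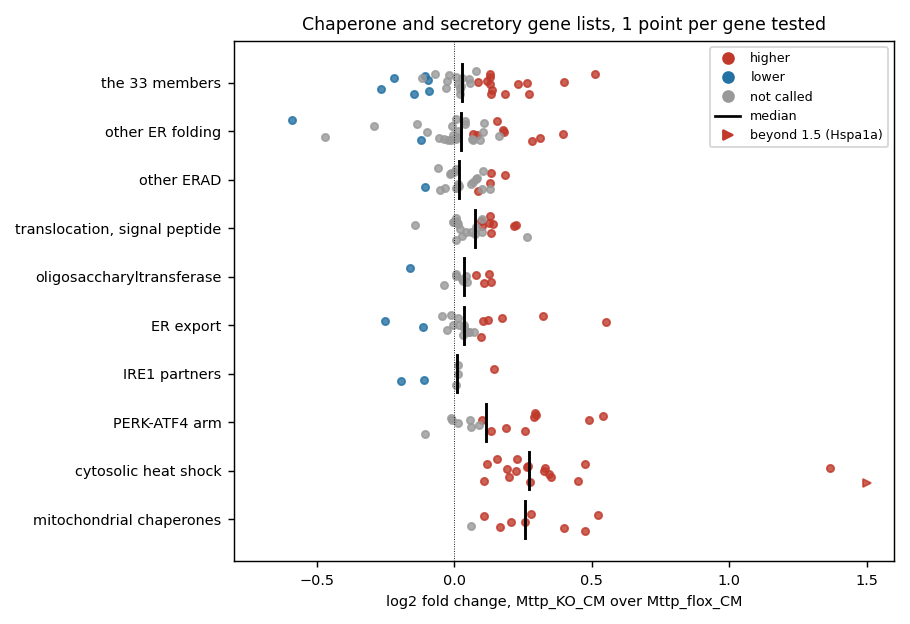
Log2 fold change (Mttp_KO_CM over Mttp_flox_CM, horizontal axis) of each tested gene of the 33 and of 9 other lists, coloured by call, with black bars at list medians; the list with Creb3l3 is not drawn. The 18 cytosolic heat shock genes all lie to the right of 0, with a median of 0.27, while the 33 ER genes spread over both sides with a median of 0.030.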

How the data were processed

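RNA of 10 hepatocyte libraries was measured by poly-A selected sequencing. The authors deposited raw counts per gene and FPKM values; per the submitters' processing notes, HISAT2 2.0.5, featureCounts 1.5.0-p3 and build GRCm39 were used. The sources used here give neither the strand setting nor the treatment of multi-mapping reads. Each FPKM value deposited by the authors was the count over the gene's length and over a constant for that library. The labels match 8 columns; the other 2, 1 per group, carry a number no label gives and were used as libraries without a number.

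Counts were tested with edgeR 4.0.16 in R 4.3.3 (filterByExpr with a minimum count of 10 and total of 15, TMM, glmQLFTest with 1 term for group), and p-values were adjusted by Benjamini-Hochberg over 14183 genes, which held 99.8% of the counts. SE is the log2 change divided by the square root of F. Levels between genes are CPM per kb of gene length. Alternatives were DESeq2 1.42.0, RLE factors, library size alone, other filters, limma 3.58.1 on log2(FPKM + 1), a replicate block and left-out libraries.

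All 33 members were named, with up to 3 genes of the smallest p at a mean of at least 5 CPM from each other list, plus genes needed for counts of 5 or fewer; 1 gene that this rule takes is not reported here. Members and lists were chosen with earlier results of these data known. Promoters came from RefSeq (GRCm38.p6), matched by symbol, and coordinates of genes from the deposited table (GRCm39).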

Additional observations from a re-analysis of the deposited data

How the results depend on the processing

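Calls of the 33 genes were compared over 18 alternatives, which gave 594 single results. Of these, 551 kept direction and side of the threshold, 14 lost the call, 4 gained it and 25 changed sign, all 25 in genes that were not called. The members called higher numbered 11 to 14 and those called lower 5 to 7 over all alternatives, and the median log2 change ran from 0.021 to 0.043 when 1 library was left out. The difference in share of counts was 0.0358 to 0.0414 percentage points with 1 library left out and 0.0348 without the libraries lacking a number.

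With library size alone the log2 change was -0.010 for Dnajb11, -0.017 for Calr, -0.019 for Edem1, -0.025 for Edem3, -0.031 for Sel1l and -0.014 for Sec61b, and the median of the 33 was -0.010. With 1 numbered library left out the ranges that crossed 0 were -0.081 to 0.020 for Sdf2l1, -0.001 to 0.034 for Edem1, -0.056 to 0.003 for Edem2, -0.018 to 0.026 for Edem3, -0.008 to 0.020 for Sel1l and -0.034 to 0.002 for Syvn1. Sel1l had -0.004 without the Mttp_KO_CM library lacking a number, and Sec61b had -0.017 without that library and -0.009 without its Mttp_flox_CM counterpart. Without both libraries lacking a number, Calr had -0.001, Edem1 -0.004 and Sec61b -0.048, and 11 members were higher and 5 lower.

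Replicate numbers are not stated to mark a pairing. Deviations of same-numbered libraries correlated between -0.00815 and 0.0609, and only the libraries numbered 4 correlated best with their own number. Such correlations cannot exclude a shared culture or day. With the replicate block over the 8 numbered libraries 12 members were higher and 5 lower, with a median of 0.032, 2326 of all genes were higher and 2325 lower, and Calr (-0.001), Edem1 (-0.004) and Sec61b (-0.048) changed sign. Under the block Dnajc10 (edgeR adjusted p = 0.0714) and Pdia6 (edgeR adjusted p = 0.148) were no longer called. Depth limits Derl3 most, with 69 to 158 counts per library.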

Other observations

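Genes outside the ER set also held the ER stress element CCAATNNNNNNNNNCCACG in their RefSeq promoter window. Of 37 such genes 27 were not members, and 9 of these were tested, with 3 higher and 1 lower in Mttp_KO_CM. Those called are named here, after their values were seen. The 9 genes had a median log2 change of 0.013, below that of the 10 members with the element. Their higher share was 33.3%, beside 18.2% of all genes tested and 29.8% of those with at least 30 CPM. Their lower share was 11.1%, beside 18.1% and 20%. The difference between members and other genes with the element was not tested. Acacb, encoding acetyl-CoA carboxylase 2 of the mitochondrial surface, had 115 ± 3.33 CPM in Mttp_KO_CM and 60.1 ± 2.32 CPM in Mttp_flox_CM (SD, n = 5 each; log2 0.94, edgeR adjusted p = 3.4e-16). Alg12, a mannosyltransferase that builds the sugar chain of glycoproteins in the ER, had 29.2 ± 1.89 CPM in Mttp_KO_CM and 25.1 ± 1.11 CPM in Mttp_flox_CM (SD, n = 5 each; log2 0.22, edgeR adjusted p = 0.0025). Xlr3a was higher at a low level (log2 0.74, edgeR adjusted p = 0.022). Acnat2, an acyltransferase of bile acid and fatty acid conjugation, had 18.4 ± 1.81 CPM in Mttp_KO_CM and 44.7 ± 5.30 CPM in Mttp_flox_CM (SD, n = 5 each; log2 -1.27, edgeR adjusted p = 5.8e-13).

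Across the 33 ER genes, the mean level per length and the log2 change had a Spearman rho of 0.244 (n = 33 genes of the same libraries), given as a description.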
